A study of Mus musculus with 12 samples.

Results

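The 10 genes of mitochondrial beta-oxidation examined here were Cpt1a, Cpt1b, Cpt2, Acadvl, Acadl, Acadm, Hadha, Hadhb, Hadh and Acaa2, taken by name from the 31722 gene symbols of the expression table. They were followed in hearts of C57BL/6J mice, 6 given carbon tetrachloride (CCl4) and 6 of a Control group, 1 RNA-seq library per heart. CCl4 is a solvent toxic to the liver, and the study used it to make a mouse model of cirrhosis and to ask what cirrhosis does to the heart. Dose, duration, age and sex are not given in the sources used here. Mice of both groups carried no transgene or mutant allele that the labels name, and nothing beyond CCl4 set the groups apart in the labels. Levels are in RPKM (reads per gene length and sequencing depth), so those of different genes can be set side by side.

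Beta-oxidation shortens fatty acids inside mitochondria and is the main source of ATP in the adult heart. Long-chain acyl groups enter through the carnitine shuttle, in which carnitine palmitoyltransferase 1 of the outer membrane forms acylcarnitine, a carrier moves it inward and carnitine palmitoyltransferase 2 of the inner membrane rebuilds acyl-CoA. A cycle of dehydrogenation, hydration, a further dehydrogenation and thiolysis then removes acetyl-CoA, with separate enzymes for chains of different length. Many of these genes are known targets of the nuclear receptors PPAR-alpha and ERR-alpha and of their coactivator PGC-1alpha.

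Library depth, expressed in steps of the RPKM scale that stand for single reads or parts of reads, ran from 39676548 to 63406257 in CCl4 hearts and from 26351124 to 57816239 in Control hearts. Between any pair of libraries the correlation across genes was 0.944 to 0.990, and no library was a copy of another. All 10 cardiomyocyte markers were detected in every heart, and their summed level was 25437 to 39534 RPKM in CCl4 hearts and 36391 to 47039 RPKM in Control hearts. A pair of libraries stood apart. CCl4 replicate 3 had the lowest summed cardiomyocyte markers, and Control replicate 1 the highest summed atrial markers, 15078 RPKM, against 608 to 4454 RPKM in the other 5 Control hearts and 834 to 11754 RPKM in CCl4 hearts. Nearly all of this sum was Nppa, the gene of atrial natriuretic peptide, which had a higher mean in CCl4 hearts. The atrial myosin light chain Myl7 was at 307 RPKM in CCl4 replicate 4 and at 0.811 to 28.7 RPKM in the other 5 CCl4 hearts, against 9.47 to 419 RPKM in Control hearts. Of the 5 atrial markers tested 4 were lower in CCl4 hearts (3 with mitochondrial genome genes and their nuclear copies left out of the scaling, or without Control replicate 1, Dkk3 then being higher), with a median log2 fold change of -1.38 (-0.90 without CCl4 replicate 3 and Control replicate 1). With an atrial covariate in the fit the median of the 10 beta-oxidation genes was -0.42. CCl4 replicate 3 and Control replicate 1 were the lowest of their groups in most of the beta-oxidation genes, so the fold changes of the 10 genes, the 4 ratios and the medians of most gene lists are also given without them. Xist was high in replicates 1, 3, 4 and 6 of each group and near 0 in replicates 2 and 5, with the Y-linked gene Ddx3y the other way round, so the groups held the same mix.

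All 10 beta-oxidation genes had a lower mean in CCl4 than in Control hearts, by 14.1% (Acadm) to 35.4% (Acaa2) on the RPKM scale. Their log2 fold changes, on the log2(RPKM + 1) scale, ran from -0.67 for Acaa2 to -0.23 for Acadm with a median of -0.38, where the median of all 14087 genes tested was -0.05. Log2 fold changes under 0 were found in 65.7% of all genes tested, and 422 of the 14087 lay at or under the median of the 10. No gene passed the limma test after Benjamini-Hochberg adjustment over all genes tested, 0 of 14087 (0%), and the smallest adjusted p among the 10 was 0.229, of Cpt1b. At an unadjusted p under 0.05, Cpt1b, Cpt2, Acadl, Acadvl and Acaa2 were lower, 5 of 10, where 8.58% of all genes tested were lower and 1.60% higher by that rule. This count was 2 under median of ratios scaling, where 5.37% of all genes were lower, and 8 without Control replicate 1, where 10.7% were, and all 10 genes were lower under each of these. Mitochondrial genome genes and their nuclear copies made up 66.6% to 76.9% of summed RPKM in CCl4 hearts and 64.3% to 72.4% in Control hearts. With these left out of the scaling, the median log2 fold change was -0.29 for the 10 genes and 0.02 for all genes tested. Permuting the hearts over all 924 splits, an exact two-sided test run gene by gene, also gave 0 genes after adjustment, with 9.61% of all genes lower at an unadjusted p under 0.05. Differences below are therefore given as values with their error, and p-values refer to the spread between these 12 hearts. In bulk heart RNA, fewer cells of a type and less RNA per cell cannot be told apart.

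**Figure D1:**
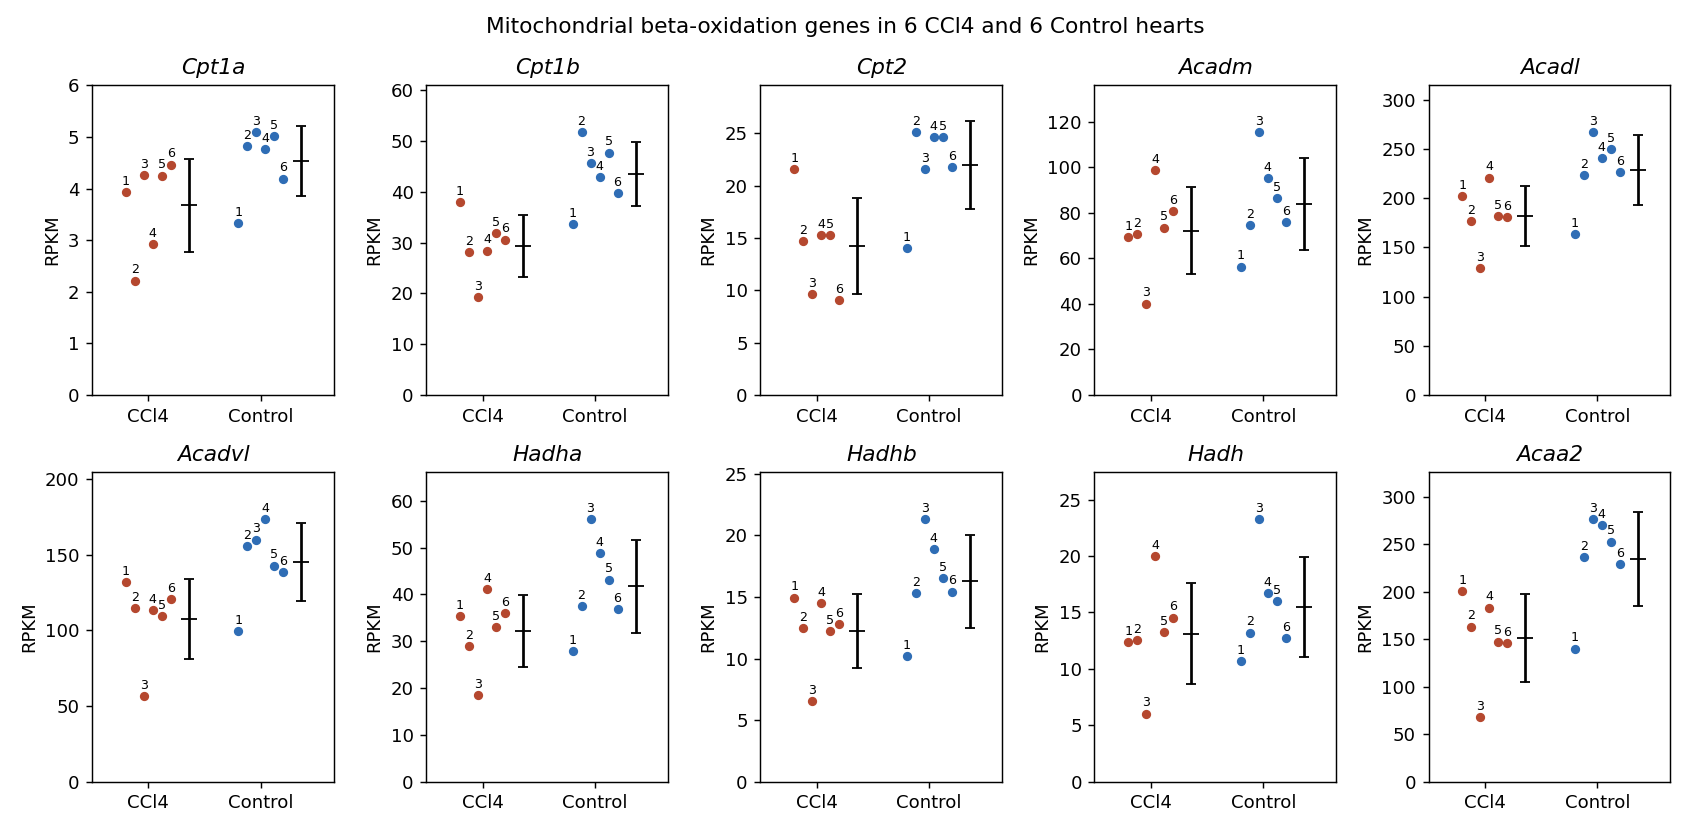
RPKM of the 10 beta-oxidation genes in each heart, CCl4 (red, left) and Control (blue, right), with replicate numbers beside the points and the group mean ± SD as bars (n = 6 each). CCl4 replicate 3 is the lowest CCl4 heart in 8 of the 10 panels and Control replicate 1 the lowest Control heart in all 10.

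In the carnitine shuttle, Cpt1b encodes the muscle form of carnitine palmitoyltransferase 1 and Cpt1a the form that predominates in liver. Cpt1b (chromosome 15, 89416405 to 89425863, minus strand, GRCm38) was at 19.3, 29.5 and 38.0 RPKM (lowest, median and highest) in CCl4 hearts and at 33.7, 44.2 and 51.7 RPKM in Control hearts. All CCl4 hearts but replicate 1 lay below all Control hearts. The means were 29.4 ± 6.11 RPKM in CCl4 hearts and 43.5 ± 6.33 RPKM in Control hearts (SD, n = 6 each), a log2 fold change of -0.57 (SE 0.15, limma p = 0.00166, adjusted p = 0.229; exact permutation p = 0.00433, lower than the Control median in 6 of 6 hearts). Of the 10 genes Cpt1b had the smallest p, the 100th of the 14087 genes tested. Its gene model overlaps the gene Gm44502, and whether reads were counted by strand is not given in the sources used here, so some Cpt1b reads may belong to that model. The neighbour Chkb, a choline kinase gene named here only for its position, does not overlap Cpt1b in the annotation. Its level was 20.8 ± 3.55 RPKM in CCl4 hearts and 29.8 ± 4.06 RPKM in Control hearts (log2 fold change -0.51, SE 0.12).

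Cpt1a (chromosome 19, 3322334 to 3385733, plus strand) was the lowest of the 10 in both groups. Its level was 2.22, 4.09 and 4.47 RPKM in CCl4 hearts and 3.32, 4.80 and 5.09 RPKM in Control hearts, so the groups overlapped, and CCl4 replicates 2 and 4 were lower than every Control heart. The log2 fold change was -0.26 (SE 0.14, 95% interval -0.55 to 0.03, adjusted p = 0.540). Cpt1a behaved apart from the other 9 genes across hearts as well. CCl4 replicate 3, the lowest heart for most of them, was at 4.26 RPKM of Cpt1a, the second highest CCl4 value.

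As a share of both carnitine palmitoyltransferase 1 genes, Cpt1a made up 11.4 ± 3.79% in CCl4 hearts and 9.44 ± 0.591% in Control hearts (SD, n = 6 each). The Control hearts kept within 8.54% to 10.04%, while CCl4 hearts ran from 7.31% to 18.1%, the highest in replicate 3. The ratio of Cpt1a to Cpt1b was 0.131 ± 0.0501 in CCl4 hearts and 0.104 ± 0.00719 in Control hearts. This ratio does not depend on how the libraries were scaled, and the difference did not pass (exact two-sided permutation p = 0.301, 0.602 after Benjamini-Hochberg adjustment over 4 ratios, higher than the Control median in 3 of 6 CCl4 hearts). Its log2 difference of 0.25 was 0.08 without CCl4 replicate 3.

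Cpt2 (chromosome 4, 107903981 to 107923610, minus strand), which rebuilds acyl-CoA in the matrix, was at 9.04, 14.95 and 21.6 RPKM in CCl4 hearts and at 14.01, 23.2 and 25.1 RPKM in Control hearts. The groups overlapped only through Control replicate 1, the lowest Control heart. Mean levels were 14.2 ± 4.56 RPKM in CCl4 hearts and 21.95 ± 4.18 RPKM in Control hearts, with a log2 fold change of -0.62 (SE 0.19, p = 0.00657, adjusted p = 0.299; exact permutation p = 0.0238). CCl4 replicate 6 was the lowest heart here, although it was not the lowest in the other 9 genes. The ratio of Cpt2 to Cpt1b was therefore 0.296 in that heart and 0.478 to 0.567 in the other 5 CCl4 hearts, against 0.416 to 0.575 in Control hearts, and the means of 0.483 ± 0.0968 in CCl4 hearts and 0.502 ± 0.0567 in Control hearts did not differ beyond their spread (exact permutation p = 0.732, adjusted p = 0.732). Leaving out CCl4 replicate 6 turned the log2 ratio to 0.06, with an adjusted p of 0.713.

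The first dehydrogenation is shared by the very-long-chain, long-chain and medium-chain acyl-CoA dehydrogenases, encoded by Acadvl, Acadl and Acadm. Acadvl (chromosome 11, 70010183 to 70015411, minus strand) was at 56.3, 113.9 and 131.9 RPKM in CCl4 hearts and at 99.3, 149.2 and 173.5 RPKM in Control hearts. All CCl4 hearts lay below the Control median and only replicate 3 lay below all Control hearts. The log2 fold change was -0.45 (SE 0.19, p = 0.0340, adjusted p = 0.435; exact permutation p = 0.0368). The Acadvl model overlaps Dvl2, which lies on the other strand, and Mir324. Mir324 was at 1.73 ± 0.959 RPKM in CCl4 hearts and 4.90 ± 0.456 RPKM in Control hearts (log2 fold change -1.18, SE 0.19, limma adjusted p = 0.0731). Dvl2 was at 33.4 ± 8.22 RPKM in CCl4 hearts and 45.3 ± 7.53 RPKM in Control hearts, a log2 fold change of -0.46 (SE 0.18), and without the strand setting the reads of the shared stretch cannot be told apart.

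Acadl (chromosome 1, 66830839 to 66863277, minus strand) had levels of 129, 181 and 221 RPKM in CCl4 hearts and 163, 233 and 267 RPKM in Control hearts. Only Control replicate 1 lay within the range of the CCl4 hearts. The difference of -0.33 on the log2 scale (SE 0.14, p = 0.0347, adjusted p = 0.436; exact permutation p = 0.0433) was the smallest among the 5 genes with an unadjusted p under 0.05. Acadl was also among the least variable of the 10, with means of 182 ± 30.8 RPKM in CCl4 hearts and 228 ± 35.7 RPKM in Control hearts. The Acadl model overlaps Gm15793, which was at no more than 0.839 RPKM in any heart, and Gm27934.

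Acadm (chromosome 3, 153922357 to 153944632, minus strand), the enzyme whose deficiency is a known inborn error of fasting metabolism in humans, was at 40.2, 72.2 and 99.0 RPKM in CCl4 hearts and at 56.4, 81.3 and 115.5 RPKM in Control hearts. The groups overlapped widely, with CCl4 replicate 4 above 5 of the 6 Control hearts. Its log2 fold change was the smallest of the 10, -0.23 (SE 0.20, 95% interval -0.66 to 0.20, adjusted p = 0.738). The ratio of Acadm to Acadvl, medium-chain over very-long-chain dehydrogenase, was 0.679 ± 0.116 in CCl4 hearts and 0.579 ± 0.0812 in Control hearts. This log2 difference of 0.22 did not pass (exact permutation p = 0.106, adjusted p = 0.424, higher than the Control median in 5 of 6 hearts).

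**Figure D2:**
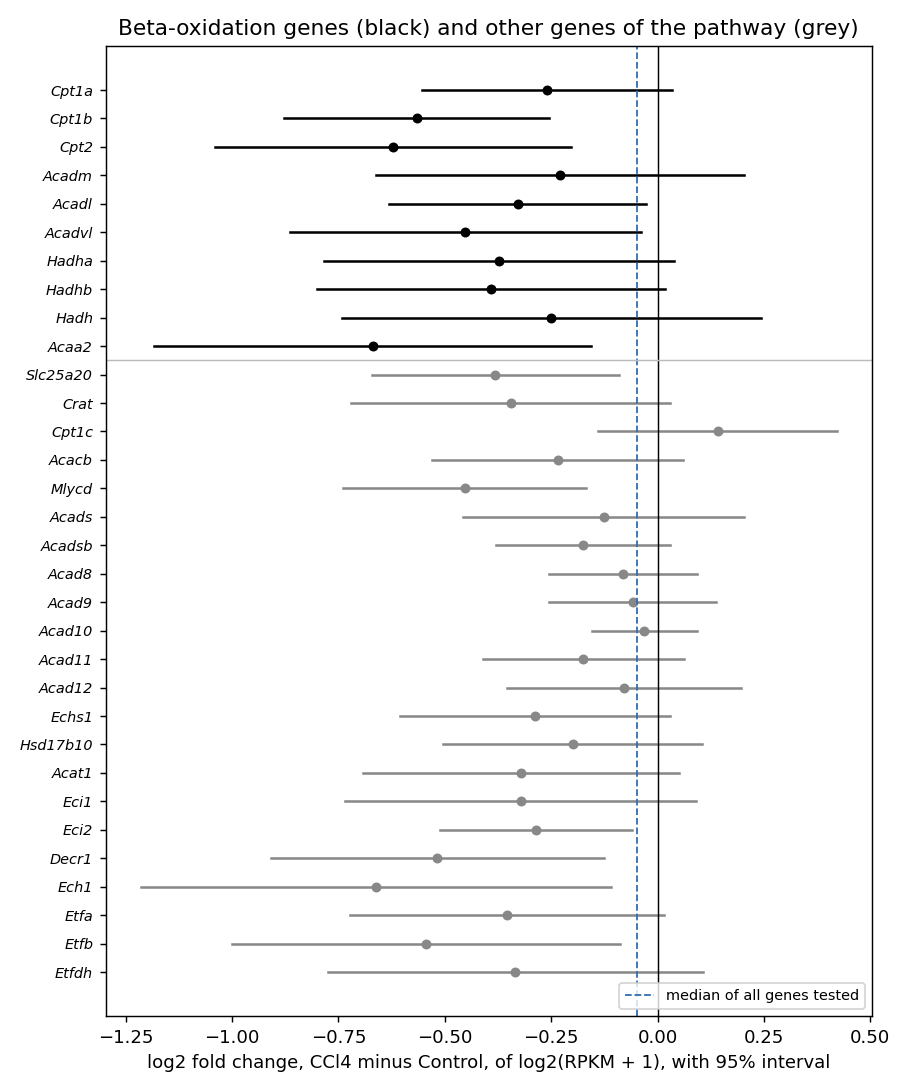
Log2 fold change of CCl4 over Control hearts with its 95% interval from the limma fit (horizontal axis, log2(RPKM + 1) scale) for the 10 beta-oxidation genes (black) and 22 other genes of the pathway (grey); the dashed line is the median of all genes tested, -0.05. All 10 black points lie left of 0 and the intervals of 5 of them do not reach it, before any adjustment for the number of genes.

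Hadha and Hadhb encode the alpha and beta subunits of the trifunctional protein, which carries out hydration, the second dehydrogenation and thiolysis of long chains at the inner membrane. They are neighbours on chromosome 5, Hadha on the minus strand (30118304 to 30155162) and Hadhb on the plus strand (30155248 to 30184593), and their annotated starts point away from each other with 85 bases between them. These starts are those of GENCODE M21, and RefSeq starts can differ from them. The RefSeq promoter window of Hadhb (GRCm38.p6, chr5:30155003-30155302, plus strand) is shown because it holds the GENCODE starts of both genes. Capitals mark the bases between the GENCODE starts.
Hadhb: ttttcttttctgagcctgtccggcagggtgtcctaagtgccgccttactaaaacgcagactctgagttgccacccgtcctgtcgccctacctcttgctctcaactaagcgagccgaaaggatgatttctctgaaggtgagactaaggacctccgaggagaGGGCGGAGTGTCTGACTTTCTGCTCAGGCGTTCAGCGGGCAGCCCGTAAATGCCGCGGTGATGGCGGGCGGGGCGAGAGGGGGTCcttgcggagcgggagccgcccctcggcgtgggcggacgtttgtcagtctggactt
The GC box letters GGGCGG, the known binding letters of SP1-type factors, stand inside the capitals at positions -90 and -25 counted from the RefSeq start of Hadhb.

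Hadha was at 18.5, 34.2 and 41.1 RPKM in CCl4 hearts and at 27.9, 40.3 and 56.1 RPKM in Control hearts. Hadhb was at 6.56, 12.6 and 14.95 RPKM in CCl4 hearts and at 10.2, 15.98 and 21.3 RPKM in Control hearts. For both subunits CCl4 replicate 3 lay below all Control hearts, and the groups overlapped. The log2 fold changes were -0.37 for Hadha (SE 0.19, adjusted p = 0.525) and -0.39 for Hadhb (SE 0.19, adjusted p = 0.507). The 2 subunits moved together from heart to heart, with r = 0.965 between their deviations from the group means over the 12 hearts, given as a description. Their ratio, Hadhb over Hadha, was 0.381 ± 0.0354 in CCl4 hearts and 0.390 ± 0.0200 in Control hearts, a log2 difference of -0.04 that did not pass (exact permutation p = 0.539, adjusted p = 0.719). The Hadha model overlaps Garem2 and that of Hadhb holds Mir1960. Garem2 was at no more than 0.269 RPKM and Mir1960 at no more than 0.443 RPKM in any heart. How reads of the shared stretches were counted is not given in the sources used here.

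Hadh (chromosome 3, 131233419 to 131272101, minus strand) encodes the matrix 3-hydroxyacyl-CoA dehydrogenase for medium and short chains. It was at 6.04, 12.9 and 20.03 RPKM in CCl4 hearts and at 10.7, 14.6 and 23.3 RPKM in Control hearts. With a log2 fold change of -0.25 (SE 0.23, 95% interval -0.74 to 0.24, adjusted p = 0.752) it showed the least separation of the 10 beside its error. Without CCl4 replicate 3 alone the log2 fold change was -0.06 for Hadh and -0.07 for Acadm, and without Control replicate 3 alone it was -0.13 for both. Hadh and Acadm, both enzymes of medium chains, had nearly the same pattern over hearts, with r = 0.986 between their deviations, the highest of the 45 gene pairs.

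Acaa2 (chromosome 18, 74779197 to 74806208, plus strand) encodes the mitochondrial 3-ketoacyl-CoA thiolase, the last step of the cycle. Its levels were 67.7, 156 and 201 RPKM in CCl4 hearts and 140.3, 245 and 277 RPKM in Control hearts. Apart from Control replicate 1, every Control heart lay above every CCl4 heart. The means were 151 ± 46.2 RPKM in CCl4 hearts and 234 ± 49.6 RPKM in Control hearts, and the log2 fold change of -0.67 (SE 0.24, p = 0.0144, adjusted p = 0.363; exact permutation p = 0.0216) was the largest of the 10. Acaa2 and Acadl were the most abundant of the 10 genes. Acaa2 stood above Acadl in 0 of 6 CCl4 hearts (median ratio 0.822) and in 5 of 6 Control hearts (median ratio 1.03), a contrast picked out after the values were seen and given with no test.

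**Figure D3:**
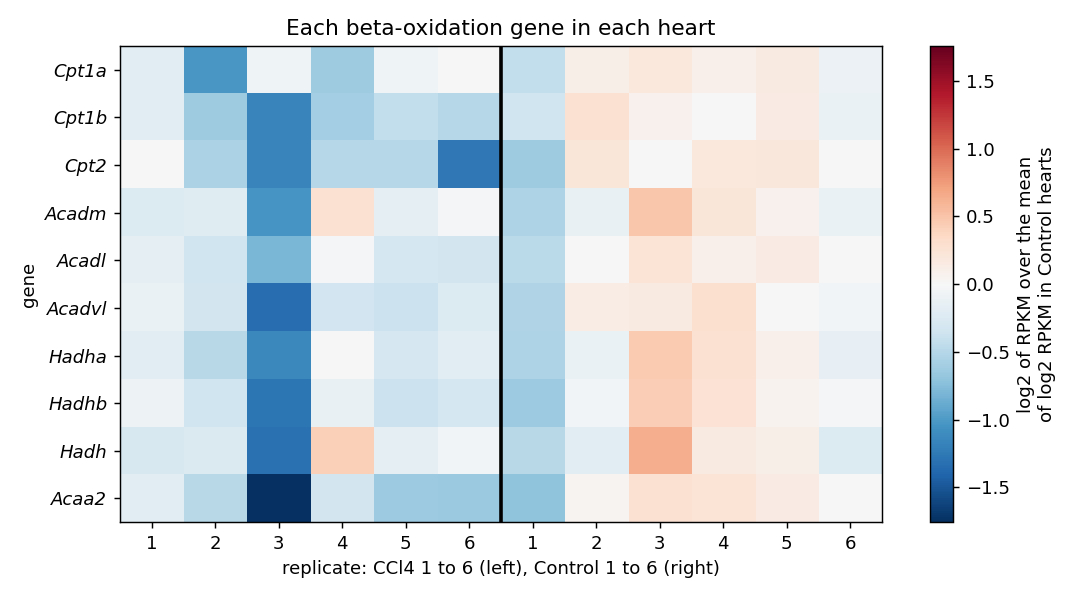
Level of each beta-oxidation gene (rows) in each heart (columns, CCl4 replicates 1 to 6 left of the line, Control replicates 1 to 6 right of it) as log2 of RPKM over the mean of log2 RPKM in Control hearts; blue is lower and red higher. CCl4 replicate 3 is the darkest blue column in 8 of 10 rows, Cpt1a keeps its own pattern, and CCl4 replicate 4 is red for Acadm and Hadh.

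By mean level the order in CCl4 hearts was Acadl, Acaa2, Acadvl, Acadm, Hadha, Cpt1b, Cpt2, Hadh, Hadhb and Cpt1a, and in Control hearts Acaa2, Acadl, Acadvl, Acadm, Cpt1b, Hadha, Cpt2, Hadhb, Hadh and Cpt1a. In Control hearts the means of the neighbours Acaa2 and Acadl, Cpt1b and Hadha, and Hadhb and Hadh lay closer together than the SDs between hearts. These pairs were not compared by a test. The same 3 pairs changed places between the groups. The summed level of the 10 genes was 357, 630 and 739 RPKM (lowest, median and highest) in CCl4 hearts and 559, 862 and 992 RPKM in Control hearts.

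From heart to heart within the groups, most of the 10 genes varied together. Over the 45 pairs the median r between deviations from the group means was 0.804 over 12 hearts, from 0.0002 for Cpt1a with Acaa2 to 0.986 for Acadm with Hadh. Each pair of Cpt1a with another of the 10 had an r of 0.270 or less. This common pattern rested on the libraries that stood apart: without CCl4 replicate 3 and Control replicate 1 the median r was 0.329, with a range of -0.275 to 0.988. The tested genes most like the mean of the 10 were Cycs (r = 0.987), Ndufs3 (0.978), Ndufv2 (0.976), Sod2 (0.976), Fam195a (0.975), Dhrs4 (0.973), Mdh1 (0.971) and Fkbp4 (0.971), over the same 12 hearts. These r values share library and depth with the mean they were set against and carry no p. The log2 fold changes of these 8 genes were themselves between -0.44 (Fkbp4) and -0.14 (Sod2).

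Overlap of the groups was also counted with each library set aside in turn, a step chosen after the values were seen. With all 12 hearts, 0 of the 10 genes had groups that did not overlap, where 0.724% of all genes did so with CCl4 lower and 0.0355% with CCl4 higher. Without Control replicate 1, 6 of the 10 did, namely Cpt1b, Cpt2, Acadl, Acadvl, Hadhb and Acaa2, where 2.37% of all genes did so. That library was the lowest Control heart in all 10 genes, so leaving it out could not lower this count. Without CCl4 replicate 1 it was Cpt1b alone, with 1.59% of all genes, and 0 of the 10 without any other single library, with 0.767% to 1.90% of all genes. All 6 CCl4 hearts were below the Control median in 7 of the 10 genes, where this held for 11.1% of all genes tested, and in Acadm, Hadha and Hadh 5 of 6 hearts were.

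Leaving out CCl4 replicate 3 brought the median log2 fold change of the 10 genes to -0.26, and leaving out Control replicate 1 brought it to -0.49. With both left out it was -0.36, and all 10 genes were still lower in CCl4 hearts, 8 of them at an unadjusted p under 0.05, where 16.0% of all genes were lower by that rule. The log2 fold changes in the shuttle were then -0.37 for Cpt1a, -0.52 for Cpt1b and -0.65 for Cpt2. Among the dehydrogenases they were -0.38 for Acadvl, -0.33 for Acadl and -0.18 for Acadm. Later in the cycle they were -0.33 for Hadha, -0.36 for Hadhb, -0.15 for Hadh and -0.59 for Acaa2. CCl4 replicate 3 carried more of some genes than of others: without it alone Acadvl was at -0.28, Hadha at -0.23 and Hadhb at -0.24, and without CCl4 replicate 2 Cpt1a was at -0.16. The log2 ratios without both libraries were 0.07 for Cpt1a to Cpt1b, -0.15 for Cpt2 to Cpt1b, -0.04 for Hadhb to Hadha and 0.20 for Acadm to Acadvl (adjusted exact permutation p = 0.738 each). In the limma fit without both libraries Acaa2 (SE 0.10, adjusted p = 0.0267) and Cpt1b (SE 0.10, adjusted p = 0.0359) passed, 2 of 10, beside 1.15% of all genes called lower. This choice of libraries was made after their values were seen. Weighting the libraries by their variability (limma's array weights) gave adjusted p-values under 0.05 for 6 of the 10, Cpt1b, Cpt2, Acadl, Acadvl, Hadhb and Acaa2, beside 10.5% of all genes called lower. With both libraries numbered 1 left out Cpt1b and Cpt2 passed, 2 of 10, beside 1.57% of all genes called lower. In the 4 hearts of each group with high Xist alone the median was -0.40, and in the 2 of each group with low Xist alone it was -0.40 as well, with all 10 genes lower in both.

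**Figure D4:**
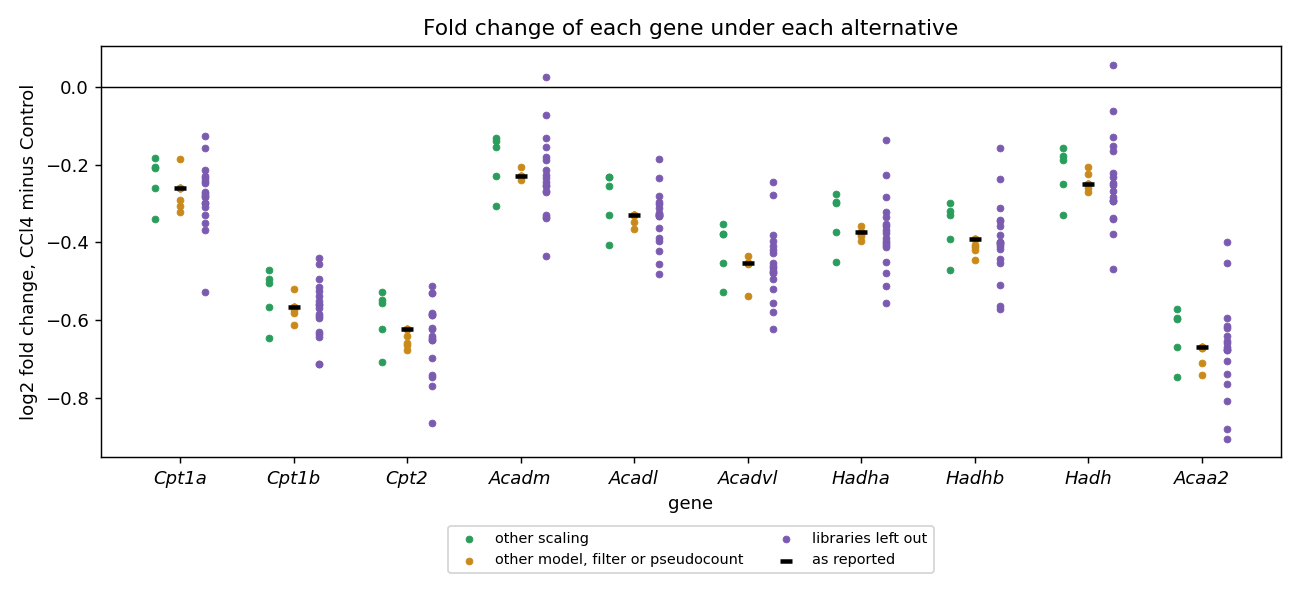
Log2 fold change of each beta-oxidation gene, CCl4 minus Control, in the reported fit (black bars) and under each alternative (points): other scalings of the libraries (green), other models, filters or pseudocounts (orange) and libraries left out (purple). The 10 genes stay under 0 throughout, other than Acadm and Hadh with CCl4 replicate 3 and Control replicate 3 left out.

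Of 23 other genes of the pathway 22 were tested, 21 lower and 1 higher in CCl4 hearts, with a median log2 fold change of -0.29, and 0 passed after adjustment. At an unadjusted p under 0.05, 6 were lower, against 1 under median of ratios scaling and 9 without CCl4 replicate 3 and Control replicate 1, where the shares of all genes were 8.58%, 5.37% and 16.0%. The median was -0.16 without CCl4 replicate 3 alone and -0.22 without both libraries. The only one higher was Cpt1c, a brain form of carnitine palmitoyltransferase 1 expressed here at 0.717 ± 0.368 RPKM in CCl4 hearts and 0.536 ± 0.188 RPKM in Control hearts. Under median of ratios scaling or quantile normalization Acad10 was also higher, and with mitochondrial genome genes and their nuclear copies left out of the scaling so were Acad9 and Acad10.

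Among the partners of the shuttle, the carnitine-acylcarnitine carrier Slc25a20 was at 5.74 ± 1.04 RPKM in CCl4 hearts and 7.77 ± 1.33 RPKM in Control hearts (log2 fold change -0.38, SE 0.13, limma adjusted p = 0.363, lower at an unadjusted p under 0.05). Carnitine acetyltransferase, Crat, had a log2 fold change of -0.35 (SE 0.17). Malonyl-CoA holds back carnitine palmitoyltransferase 1. Mlycd, which degrades it, was at 4.53 ± 0.906 RPKM in CCl4 hearts and 6.56 ± 1.13 RPKM in Control hearts (log2 fold change -0.45, SE 0.13, limma adjusted p = 0.280, lower at an unadjusted p under 0.05), while Acacb, which makes it at the mitochondrion, had a log2 fold change of -0.23 (SE 0.14), and Acaca was too low to be tested.

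The 4 auxiliary enzymes that let unsaturated fatty acids enter the cycle were all lower, 3 of them at an unadjusted p under 0.05 (0 of them under median of ratios scaling). Of all genes tested, 8.58% were lower at that p, and 5.37% under median of ratios scaling. The dienoyl-CoA isomerase Ech1 was at 55.8 ± 19.95 RPKM in CCl4 hearts and 86.2 ± 21.2 RPKM in Control hearts (log2 fold change -0.66, SE 0.26, adjusted p = 0.389), and the dienoyl-CoA reductase Decr1 at 19.5 ± 4.86 RPKM in CCl4 hearts and 28.0 ± 5.43 RPKM in Control hearts (-0.52, SE 0.18, adjusted p = 0.362). Log2 fold changes of the enoyl-CoA isomerases were -0.29 for Eci2 and -0.32 for Eci1. The electron transfer flavoprotein takes the electrons of the first dehydrogenation, and its beta subunit Etfb, the most abundant gene of the pathway, was at 575 ± 176 RPKM in CCl4 hearts and 811 ± 141 RPKM in Control hearts (-0.54, SE 0.21, adjusted p = 0.397). Log2 fold changes of -0.35 for the alpha subunit Etfa and -0.33 for its dehydrogenase Etfdh did not reach an unadjusted p of 0.05. Without CCl4 replicate 3 and Control replicate 1 the median of the auxiliary enzymes was -0.41 and that of the flavoprotein genes -0.35. All 3 flavoprotein genes were then lower at that p, where 16.0% of all genes were. Without CCl4 replicate 3 alone the flavoprotein median was -0.23.

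A list of other acyl-CoA dehydrogenases (Acads, Acadsb and Acad8 to Acad12), with Echs1, Hsd17b10 and Acat1, lay closer to 0. All 10 of them were lower as deposited, with a median log2 fold change of -0.15, and 0 reached an unadjusted p under 0.05 in the limma fit. Acad9 and Acad10 turned higher under the scalings named above, Acad12 without CCl4 replicate 3, Acad10 and Acad12 without CCl4 replicate 3 and Control replicate 1, and Acad8, Acad10 and Acad12 in low Xist hearts alone. The median was -0.09 without CCl4 replicate 3 and -0.10 without both libraries. The short-chain hydratase Echs1 had a log2 fold change of -0.29 (SE 0.15), the acetyl-CoA thiolase Acat1 -0.32 (SE 0.17), the short branched-chain dehydrogenase Acadsb -0.18 (SE 0.10) and Acad11 -0.17 (SE 0.11). Acad8 to Acad12 had group means between 0.596 RPKM (Acad10, CCl4 hearts) and 2.37 RPKM (Acad11, Control hearts), levels at which the log2(RPKM + 1) scale understates changes. The difference between this list and the 10 beta-oxidation genes was not tested.

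Other genes of mitochondria and of cardiomyocytes were also lower in the same libraries. A reference list of 10 mitochondrial genes outside the pathway had a median log2 fold change of -0.18, with 10 of 10 lower (9 under median of ratios scaling, Vdac1 being higher, and 8 with mitochondrial genome genes and their nuclear copies left out of the scaling, Tfam and Vdac1 being higher) and 2 at an unadjusted p under 0.05, the chaperonin Hspd1 (-0.42) and the cytochrome oxidase subunit Cox4i1 (-0.28); the next by p were citrate synthase Cs (-0.22) and the import receptor Tomm20 (-0.12). Without CCl4 replicate 3 the median was -0.09 with Vdac1 higher and 1 gene at that p, and without both libraries it was -0.12 with Vdac1 higher. The mean log2(RPKM + 1) of the 10 beta-oxidation genes was 5.10 ± 0.334 in CCl4 hearts and 5.51 ± 0.278 in Control hearts, and that of the reference list was 5.54 ± 0.265 in CCl4 hearts and 5.73 ± 0.208 in Control hearts (SD, n = 6 each). Taken within each heart, the beta-oxidation mean minus the reference mean averaged -0.445 ± 0.179 in CCl4 hearts and -0.220 ± 0.138 in Control hearts. The groups overlapped in this measure, from -0.677 to -0.186 in CCl4 hearts and from -0.481 to -0.093 in Control hearts. It was not tested. Of the cardiomyocyte markers 9 of 10 were lower, 3 at an unadjusted p under 0.05 (8.58% of all genes were lower at that p), with a median of -0.22. The lowest p belonged to Tnnc1 (-0.40), Tnni3 (-0.37), Myh6 (-0.28) and Myl3 (-0.37). Under median of ratios scaling, or with mitochondrial genome genes and their nuclear copies left out, 8 of the 10 markers were lower and 0 reached that p. Without CCl4 replicate 3 the median was -0.12, with Pln and Tnnt2 higher. Without both libraries it was -0.18, with Ryr2 and Tnnt2 higher and 5 markers lower at that p, where 16.0% of all genes were.

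**Figure D5:**
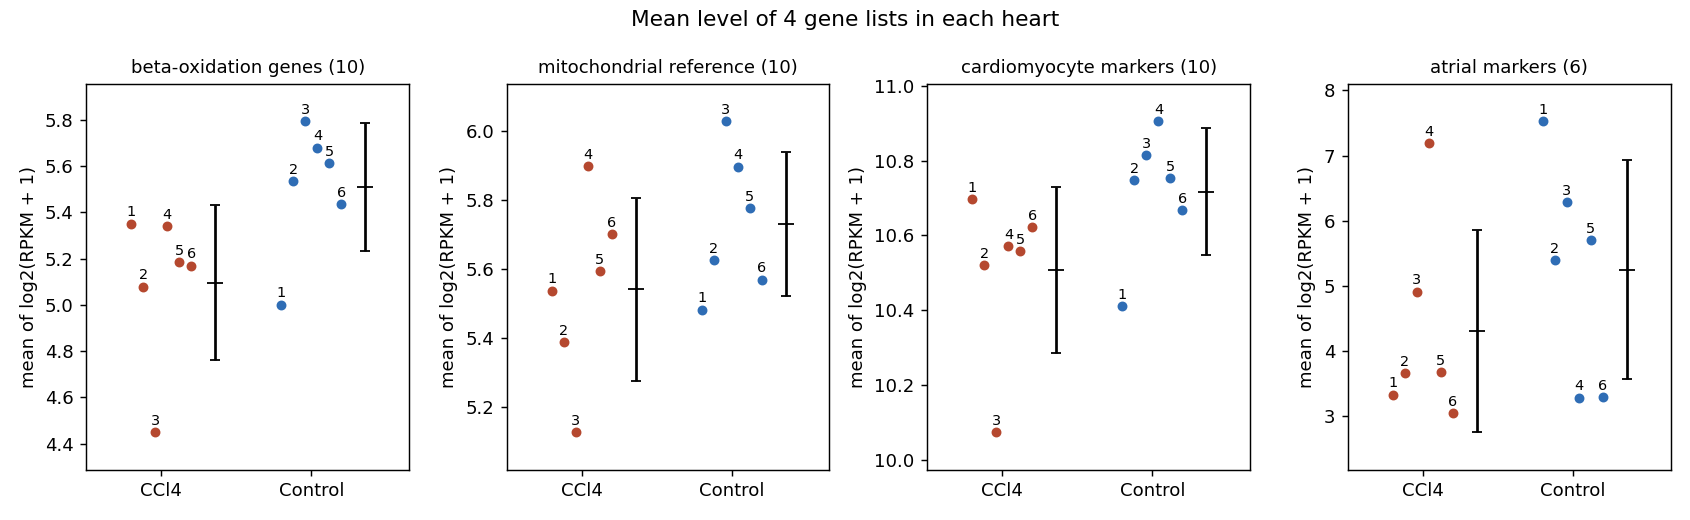
Mean log2(RPKM + 1) of 4 gene lists in each heart, CCl4 (red, left) and Control (blue, right), with replicate numbers and group mean ± SD (n = 6 each); the number of genes is in each panel's title. CCl4 replicate 3 is the lowest heart for the beta-oxidation genes, the mitochondrial reference and the cardiomyocyte markers, and Control replicate 1 is the lowest Control heart for the same 3 lists and the highest for the atrial markers.

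Markers of other cells moved in their own ways beside the beta-oxidation genes, and their part in the result was not tested. The 6 endothelial markers were all lower, each at an unadjusted p under 0.05, with a summed level of 92.9 to 141 RPKM in CCl4 hearts and 147 to 178 RPKM in Control hearts. Their median log2 fold change was -0.40, and -0.42 without CCl4 replicate 3 and Control replicate 1. Of all genes tested, 8.58% were lower and 1.60% higher at an unadjusted p under 0.05. All 6 fibroblast markers had a higher mean, 1 at that p, with sums of 96.5 to 557 RPKM in CCl4 hearts and 89.6 to 224 RPKM in Control hearts. At that p were 5 of them under median of ratios, quantile or mitochondrial-copy scaling and without Control replicate 1, 0 without CCl4 replicate 3 and 3 without both libraries, where the median of 0.71 became 0.67. All 5 red cell markers were higher, each at that p, with sums of 157 to 244 RPKM in CCl4 hearts and 116 to 235 RPKM in Control hearts. Of these, 2 reached it with TPM scaling (0.880% of all genes), 3 without CCl4 replicate 3 (1.09%) and 5 without both libraries (2.39%), where the median of 0.42 became 0.50. Brown and white adipocyte markers, of interest because fat is rich in beta-oxidation enzymes, summed to 12.8 to 53.6 RPKM in CCl4 hearts and 14.1 to 38.7 RPKM in Control hearts, with Ucp1 at 0 in some hearts. Cidea carried most of this sum and had a higher mean in CCl4 hearts (20.03 ± 7.18 RPKM against 15.6 ± 3.06 RPKM in Control hearts), while the means of the other 6 markers were lower. Of the 3 tested 2 were lower, with a median log2 fold change of -0.82 (-0.52 without CCl4 replicate 3 and Control replicate 1). Hepatocyte markers summed to 0.472 to 2.03 RPKM in CCl4 hearts and 0.436 to 0.946 RPKM in Control hearts, with Alb, Apoa1, Serpina1a and Fgb at 0 in some hearts.

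RefSeq promoter windows (GRCm38.p6, 300 bases, 250 before to 50 after the start) were matched by symbol for 8 of the 10 genes, all but Cpt1b and Acaa2. The letters AGGTCA, the core site of many nuclear receptors, were found on either strand in 3 of the 8, Cpt1a, Acadvl and Acadm, and in 16.3% of all 32851 windows. Those 3 windows are shown with that core site in capitals, which reads TGACCT where it lies on the other strand. That of Cpt1a is chr19:3323051-3323350, plus strand, that of Acadvl chr11:70015379-70015678, minus strand, and that of Acadm chr3:153944594-153944893, minus strand.
Cpt1a: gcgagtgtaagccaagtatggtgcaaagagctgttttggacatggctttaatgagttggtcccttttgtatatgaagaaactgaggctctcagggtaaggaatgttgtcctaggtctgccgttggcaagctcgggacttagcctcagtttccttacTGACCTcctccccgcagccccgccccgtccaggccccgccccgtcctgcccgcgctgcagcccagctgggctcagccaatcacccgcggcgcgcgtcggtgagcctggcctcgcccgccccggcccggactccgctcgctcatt
Acadvl: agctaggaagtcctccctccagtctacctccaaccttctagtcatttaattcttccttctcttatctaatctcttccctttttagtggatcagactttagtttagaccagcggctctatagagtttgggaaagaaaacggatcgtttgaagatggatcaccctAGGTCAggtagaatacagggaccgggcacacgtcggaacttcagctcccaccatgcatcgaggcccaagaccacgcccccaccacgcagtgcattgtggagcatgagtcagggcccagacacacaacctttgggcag
Acadm: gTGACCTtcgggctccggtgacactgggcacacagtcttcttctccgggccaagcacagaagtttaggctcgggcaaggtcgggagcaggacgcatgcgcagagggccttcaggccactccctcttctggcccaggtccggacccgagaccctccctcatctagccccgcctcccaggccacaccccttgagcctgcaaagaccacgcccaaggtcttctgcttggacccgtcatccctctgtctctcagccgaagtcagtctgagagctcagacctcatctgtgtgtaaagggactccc
The direct repeat AGGTCANAGGTCA, the known element of PPAR with its partner RXR, was in 0 of the 8 windows with up to 2 mismatches and in 3.86% of all windows. The letters TCAAGGTCA of estrogen-related receptors were in 0 of the 8 with up to 1 mismatch and in 7.46% of all windows; both motifs contain AGGTCA. The GC box GGGCGG was in 6 of the 8, all but Acadm and Acadvl, and in 35.7% of all windows. Sequence outside these windows was not searched for any of the motifs. Of the 3 genes with AGGTCA only Acadvl was lower at an unadjusted p under 0.05, and of the other 5 genes with a window Cpt2 and Acadl were.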

How the data were processed

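Messenger RNA of 12 mouse hearts, 6 CCl4 and 6 Control, was sequenced from TRIzol-extracted RNA with a stranded kit, per the labels' protocols. Trimmomatic 0.36, featureCounts and Subread 1.5.1 with GRCm38 were used, per the submitters' processing notes; the aligner, annotation release and strand setting are not given in the sources used here. As deposited, the authors' values are RPKM for 31722 gene symbols, 1 column per heart, and sample titles gave each heart's group and replicate number.

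RPKM is not a count. Multiplied by GENCODE M21 exon lengths (30270 symbols matched), 92.6% to 93.8% of values of at most 30 steps fell within 0.05 of a whole step (10% by chance), so depths are relative. The beta-oxidation genes rested on 672 to 2250 steps per library for Cpt1a and 11943 to 30946 for Acadl. Genes reaching 0.5 RPKM in 6 or more libraries (14087, all 10 beta-oxidation genes among them) were tested with limma 3.58.1 in R 4.3.3, a trend fit on log2(RPKM + 1) with Benjamini-Hochberg adjustment and a threshold of 0.05. On this scale changes of low genes are understated. Single genes and 4 ratios were also compared with exact two-sided permutation tests over 924 splits.

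The genes and the 14 gene lists were chosen with earlier results of these data known. Of each other list up to 4 genes with the smallest p were named, and the 8 genes most like the beta-oxidation mean. Chkb, a neighbour of Cpt1b, and the genes that overlap gene models, Dvl2 among them, were named for their position. The fit was tested on simulated data. Alternatives covered pseudocount, filter, scaling, array weights, a robust fit, covariates, the replicate block and libraries left out; the scaling without nuclear copies of mitochondrial genes, the pair CCl4 replicate 3 and Control replicate 1, the fits by Xist level, the count at an unadjusted p and the overlap with single libraries set aside were chosen after seeing the data. Coordinates are 1-based on GRCm38, from GENCODE M21, with promoter windows from RefSeq. The series' design gives 6 mice per group, so p-values measure the spread between animals. Tables and plots used pandas 2.3.3 and matplotlib 3.10.9 in Python 3.11.15.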

Additional observations from a re-analysis of the deposited data

Results flagged for a closer look

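Of 44 sets of 6 values examined, 7 had a sample whose gap to the nearest other was past the 95% critical value of Dixon's test, and chance flags about 1 in 20 such sets. CCl4 replicate 3 was far below the other CCl4 hearts in Acadvl (56.3 RPKM, the next 109.4), in Hadhb (6.56 RPKM, the next 12.3) and in the summed cardiomyocyte markers (25437 RPKM, the next 36200). Control replicate 1 was far below the other Control hearts in Cpt2 (14.01 RPKM, the next 21.6) and Acaa2 (140.3 RPKM, the next 229.2), and far above them in the summed atrial markers (15078 RPKM, the next 4454). The ratio of Cpt2 to Cpt1b was far below the others in CCl4 replicate 6 (0.296, the next 0.478). What sets these libraries apart was not tested.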

How the results depend on the processing

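Over 32 alternatives all 10 beta-oxidation genes were lower in CCl4 hearts in 31. The exception left out CCl4 replicate 3 and Control replicate 3, where Acadm (log2 fold change 0.0250) and Hadh (0.0576) turned higher. The median of the 10 ran from -0.56 to -0.22 and moved by less than 1 SD of the hearts (0.307) under each alternative. With 1 library left out, the ratio of Cpt2 to Cpt1b ran from a log2 difference of -0.132 without Control replicate 1 to one of 0.0568 without CCl4 replicate 6. This log2 difference was further below 0 without CCl4 replicate 3 and Control replicate 1. The number of genes called, 0 as reported (226 higher and 1209 lower at an unadjusted p under 0.05), was 2249 with array weights, 6 of the 10 among them (Cpt1b, Cpt2, Acadl, Acadvl, Hadhb and Acaa2), where 10.5% of all genes were called lower. It was 22 with an atrial covariate, 323 with both libraries numbered 1 left out (Cpt1b and Cpt2 among them, 1.57% of all genes called lower), 1 without Control replicate 1 and CCl4 replicate 4, 179 without CCl4 replicate 3 and Control replicate 1, and 98 with low Xist hearts alone. With 1 library left out it ran from 0 to 47, namely 47 without CCl4 replicate 1, 1 without CCl4 replicate 4, 2 without CCl4 replicate 6 and 31 without Control replicate 1.

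The 5 beta-oxidation genes lower at an unadjusted p under 0.05 became 2 with median of ratios scaling, 3 with quantile normalization, 3 with mitochondrial genome genes and their nuclear copies left out of the scaling, and 1 in high Xist hearts alone, where 5.37%, 5.84%, 4.11% and 1.97% of all genes were lower at that p. They became 8 with both libraries numbered 1 left out, 8 without Control replicate 1 and CCl4 replicate 4, 8 without CCl4 replicate 3 and Control replicate 1, and 3 without CCl4 replicate 3 and Control replicate 3, where 10.3%, 10.6%, 16.0% and 11.9% of all genes were. With 1 library left out the count ran from 3 to 8, with 8 without Control replicate 1 and 3 without each of Control replicates 2, 3, 4 and 5 (10.7% of all genes, and 5.93% to 7.31%). The causes were not tested. Scaling moved the background too: genes lower and higher at that p were 757 and 798 of 14087 with median of ratios, 579 and 704 without mitochondrial genes and their nuclear copies, and 1497 and 124 with TPM scaling. The median of all genes was -0.11 with TPM scaling. Between hearts of the same replicate number, correlations of deviations lay between -0.474 and 0.232, with the own number as best match for 2 of 6. High or low Xist, however, matched by replicate number throughout. These values cannot tell whether animals were matched by number. With the replicate block 0 genes were called and 3 of the 10 were lower at that p, beside 6.15% of all genes (smallest adjusted p 0.600). Among the 10, depth limits Cpt1a most, at 672 to 2250 steps per library.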
